A study of Mus musculus with 2 samples.

Results

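The cells described here are early G1 cells of mouse cortical neurospheres that carry the stage M.G1. A cell was taken when its deposited cell-cycle position lay at or above 7π/4 (5.498 rad), which is the last stretch before the cycle closes at 2π, and when its SchwabeCC stage was M.G1. By this rule 1187 of the 12805 cells were chosen, 446 of 5748 in culture 1 and 741 of 7057 in culture 2. They were set beside the 2486 cells of the same arc to which SchwabeCC gave no stage (839 and 1647), called unstaged cells from here on. The series is a single-cell RNA-seq study of 2 replicate cultures of 1 condition. The spheres came from the dorsal telencephalon of wild-type C57BL/6 embryos at embryonic day 14.5 and were grown with the growth factors EGF and bFGF, both at 10 ng/ml. No culture had another genotype or treatment, and p-values are therefore not given anywhere.

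Neurospheres are balls of neural progenitors and stem cells in suspension, kept dividing by growth factors. A cell that leaves mitosis enters G1 with transcripts of its last division still present, and these decay while the nuclear envelope and the nucleolus are rebuilt. The nucleolus makes the ribosomal subunits, and in G1 a progenitor either builds up this machinery for another division or leaves the cycle, a choice in which D cyclins promote entry into S phase and CDK inhibitors oppose it. SchwabeCC scores a cell on 5 gene lists, one for each stage, and leaves the cell without a stage when the best scores lie too close together or do not belong to neighbouring stages.

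The members made up 24.9% of the arc in culture 1 (446 of 1789 cells, exact 95% binomial interval 22.9 to 27.0) and 23.5% in culture 2 (741 of 3149 cells, 22.1 to 25.1). Binomial intervals here cover counting error only. Unstaged cells were the largest class of the arc, with 46.9% and 52.3%. The M.G1 share was higher early in the arc than at its end. Between 1.8π and 1.85π it was 57.1% of 35 cells in culture 1 and 38.9% of 108 cells in culture 2, and between 1.95π and 2π it was 21.6% of 955 cells and 21.7% of 1383 cells. Most members nevertheless lay late in the arc, with a median position of 1.95π in culture 1 and 1.94π in culture 2, because the arc holds few cells before 1.9π.

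**Figure D1:**
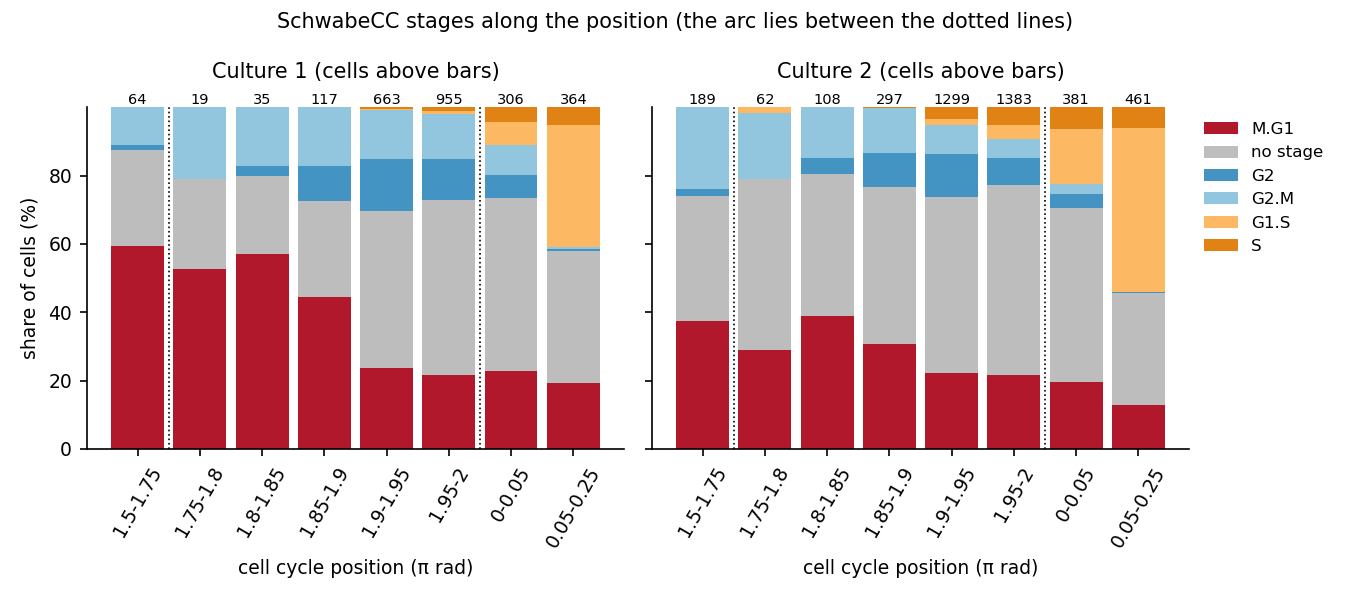
Share of cells (y axis, percent) with each SchwabeCC stage in bins of the cell-cycle position (x axis, π rad), one panel per culture, with the number of cells above each bar and the arc between the dotted lines. Within the arc the M.G1 share is highest between 1.8π and 1.85π (57.1% and 38.9%) and is 21.6% and 21.7% in the last bin.

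The deposited labels of other methods placed the members in G1. The cyclone label was G1 in 1187 of 1187 members (100%, lower limit 99.7%), and the Seurat label was G1 in 1184 (99.7%, 99.3 to 99.9). The unstaged cells could not be told from them in this way, since 2486 of 2486 had the cyclone label G1 and 2473 (99.5%) the Seurat label G1. M.G1 cells elsewhere on the cycle were different: of these 811 cells, 332 (40.9%, 37.5 to 44.4) had the Seurat label G1 and 376 (46.4%, 42.9 to 49.9) the label G2M, although cyclone labelled 655 of them (80.8%) G1. The arc also held 1042 cells staged G2 or G2.M and 223 cells staged G1.S or S.

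The 2 markers of these cells behaved differently. *Arl6ip1*, an endoplasmic reticulum protein gene whose transcript is high in mitosis, had a mean log2(value + 1) of 2.76 in members and 2.22 in unstaged cells of culture 1, and of 2.14 and 1.89 in culture 2. *Ccnd1*, which encodes cyclin D1, had means of 4.07 and 4.06 in culture 1 and of 4.07 and 4.10 in culture 2. Members were thus higher in *Arl6ip1* in both cultures, whereas their *Ccnd1* differed by -0.01 ± 0.02 (mean ± SD over the cultures, n = 2), which is less than the spread between the cultures. *Ccnd1* therefore does not set the members apart from the unstaged cells of the arc. Around the whole cycle it did vary, with means over 8 equal arcs of 3.63 to 4.24 (culture 1) and 3.65 to 4.25 (culture 2). Members, at 4.07 in both cultures, lay above the lowest of these arc means and below the highest.

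At the lower bound of the rule *Arl6ip1* did not change abruptly. The 11 and 14 M.G1 cells from 1.7π up to the bound, just outside, had mean *Arl6ip1* levels of 3.56 and 3.13, and the 10 and 18 members from the bound to 1.8π, just inside, had 3.82 and 3.36. Past the closing of the cycle, the 70 and 75 M.G1 cells between 0 and 0.05π had 2.59 and 1.95, where the 206 and 300 members between 1.95π and 2π had 2.45 and 1.88.

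Members and unstaged cells were alike in depth. The median total was 18274 UMIs in members and 18572 in unstaged cells of culture 1, and 14146 and 13907 in culture 2. Log2 total UMIs differed by 0.04 ± 0.03 (n = 2). The median number of genes of the table detected per cell was 3334 and 3312 in culture 1 and 2789 and 2703 in culture 2. The libraries shared 48 cell barcodes, which 12 members and 19 unstaged cells carried, and without these cells the counts of genes given next were the same.

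The stage was called from the expression of these same cells, and the position too, so that every difference between members and unstaged cells is a description of what was selected on and no test applies. For each gene the mean log2(value + 1) of unstaged cells was subtracted from that of members within each culture. A gene was counted as higher or lower when this difference was at least 0.2 in the same direction in both cultures, among the 6502 genes detected in at least 10% of the compared cells of each culture. By this criterion 58 genes (0.892% of the 6502) were higher in members and 2 genes (0.0308%) were lower. At 0.1, 293 genes (4.51%) were higher and 69 (1.06%) were lower. The median gene differed by 0.00 in culture 1 and 0.01 in culture 2. Over genes, which are not independent replicates, the differences of the cultures had a Pearson's r of 0.70. The sign was the same in both cultures for 4268 of the 6502 genes (65.6%). Counts of signs in the lists below stand beside this share, which was not split by direction. On log2(value + 0.1) the counts were 417 higher and 64 lower, so that the lower genes took a larger part of the total.

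**Figure D2:**
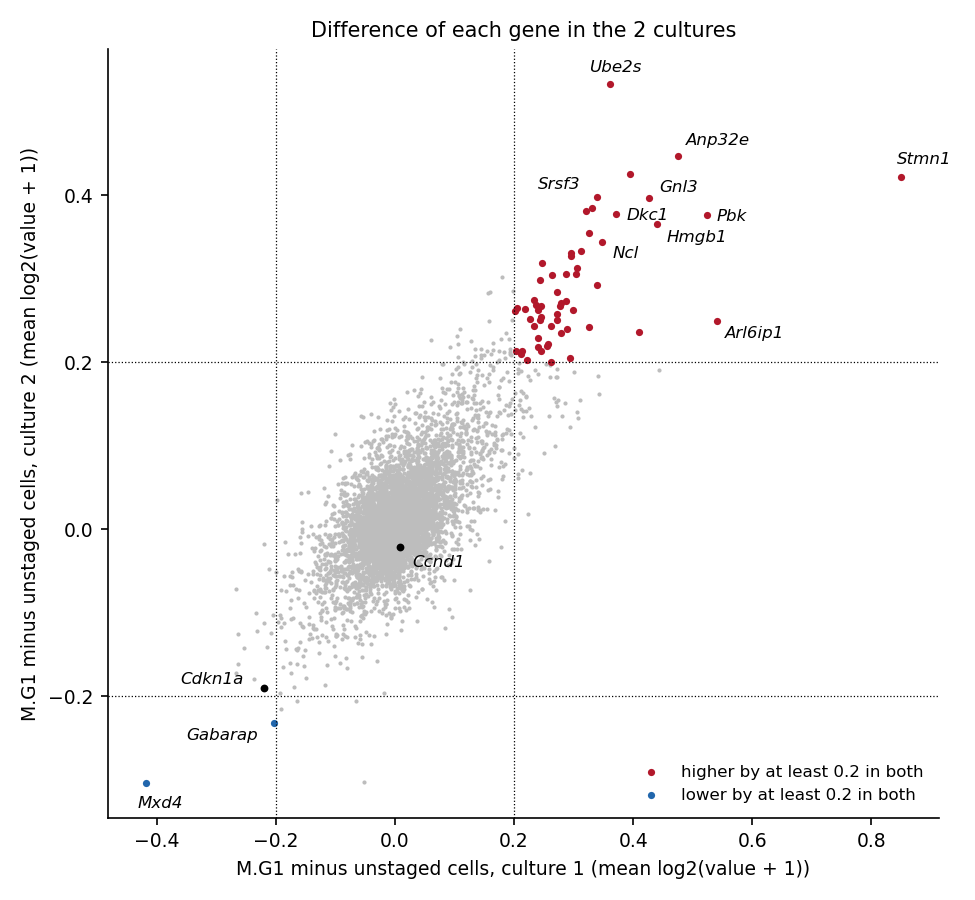
Difference in mean log2(value + 1) between M.G1 and unstaged cells of the arc for each of the 6502 genes, in culture 1 (x axis) and culture 2 (y axis), with dotted lines at 0.2 and -0.2. The 58 red genes and the 2 blue genes pass these lines in both cultures, *Stmn1* lies farthest to the right at 0.85, and *Ccnd1* lies at the centre.

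Among the genes with the largest positive differences were several with known roles in mitosis, which come from different lists or, for *Stmn1*, from none. *Stmn1*, which encodes the microtubule destabilizer stathmin, averaged 2.74 in members and 1.89 in unstaged cells of culture 1, and 2.51 and 2.09 in culture 2. The difference was 0.64 ± 0.30 (n = 2), the largest mean difference of the counted genes and also the one with the largest SD, as it was 0.85 in culture 1 and 0.42 in culture 2. *Pbk*, a mitotic kinase gene, averaged 0.84 and 0.31 in culture 1 and 0.69 and 0.31 in culture 2. It was detected in 54.3% of members and 23.5% of unstaged cells of culture 1, and in 42.9% and 20.8% in culture 2. *Ube2s*, which encodes the ubiquitin-chain elongating E2 of the anaphase-promoting complex, averaged 0.93 and 0.57 in culture 1 and 1.52 and 0.99 in culture 2, a difference of 0.45 ± 0.12 (n = 2).

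*Arl6ip1* differed by 0.39 ± 0.21 (n = 2), with 1.58-fold and 1.21-fold higher mean values in the 2 cultures. Its difference without culture 1 was 0.25, and without culture 2 it was 0.54. In the GRCm38 annotation *Pbk* lies at chr14:65805837-65817822 on the plus strand, *Ube2s* at chr7:4794546-4812590 on the minus strand and *Stmn1* at chr4:134468320-134473843 on the plus strand, and the values count spliced transcripts of these genes. *Anp32e*, a histone chaperone gene that is in the G2M list of Seurat, differed by 0.46 ± 0.02 (n = 2). *Anp32e* and *Pbk* are also in the M/G1 stage list as it was written for this work, so the stage may have been called in part on them.

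The fixed lists of mitotic genes held few counted genes. Of 30 cytokinesis and mitotic exit genes that were listed, 28 are in the table and 14 passed the detection filter. Of these 14, *Ube2s* and the marker *Arl6ip1* were higher by 0.2 (14.3%, beside 0.892% of all genes), these and *Cenpa* by 0.1 (21.4%, beside 4.51%), and none was lower by 0.1. The median difference was 0.06 in culture 1 and 0.03 in culture 2. *Cenpa*, the centromeric histone H3 variant, averaged 0.52 in members and 0.18 in unstaged cells of culture 1, and 0.53 and 0.35 in culture 2. Of the 22 G2M genes of Seurat that passed, 1 was higher by 0.2 (4.55%) and 3 by 0.1 (13.6%), 1 was lower by 0.1, and the medians were 0.02 and 0.05. The 1 gene higher by 0.2 is *Anp32e*, which is also in the M/G1 stage list. Without it, 0 of the other 21 genes were higher by 0.2 and 2 by 0.1, with medians of 0.01 and 0.04. *Tacc3*, a spindle protein gene of the G2M list, was higher by 0.21 ± 0.08. *Psrc1*, a microtubule regulator of the G2M list, was lower, at 0.56 against 0.82 in culture 1 and 0.70 against 0.87 in culture 2. *Zwint*, a kinetochore gene, also averaged less in members, with 1.93 against 2.17 and 1.85 against 2.02.

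*Pbk*, *Cenpa* and *Arl6ip1* declined along the arc in members and unstaged cells alike. In members of culture 1, *Pbk* averaged 1.82 in the first bin of the arc (up to 1.85π) and 0.52 in the last (1.95π to 2π), and in those of culture 2 it averaged 1.7 and 0.42. In unstaged cells the same bins held 1.76 and 0.22 in culture 1 and 1.19 and 0.17 in culture 2. *Cenpa* in members averaged 1.79 and 0.20 in these bins of culture 1, and 1.83 and 0.19 in those of culture 2. For *Pbk* and *Arl6ip1* the difference between the groups was largest between 1.85π and 1.9π in both cultures. For *Arl6ip1* it had the opposite sign in the first bin, where members averaged 3.57 and unstaged cells 3.90 in culture 1 and 3.09 and 3.26 in culture 2, and between 1.85π and 1.9π the values were 3.61 against 2.59 and 2.65 against 2.09. The first bin holds 30 members and 13 unstaged cells of culture 1 and 60 and 76 cells of culture 2. Averaged within 5 strata of position, the difference was 0.30 for *Arl6ip1*, 0.52 for *Stmn1*, 0.36 for *Pbk* and 0.41 for *Ube2s*, and the median of the cytokinesis genes was 0.02.

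**Figure D3:**
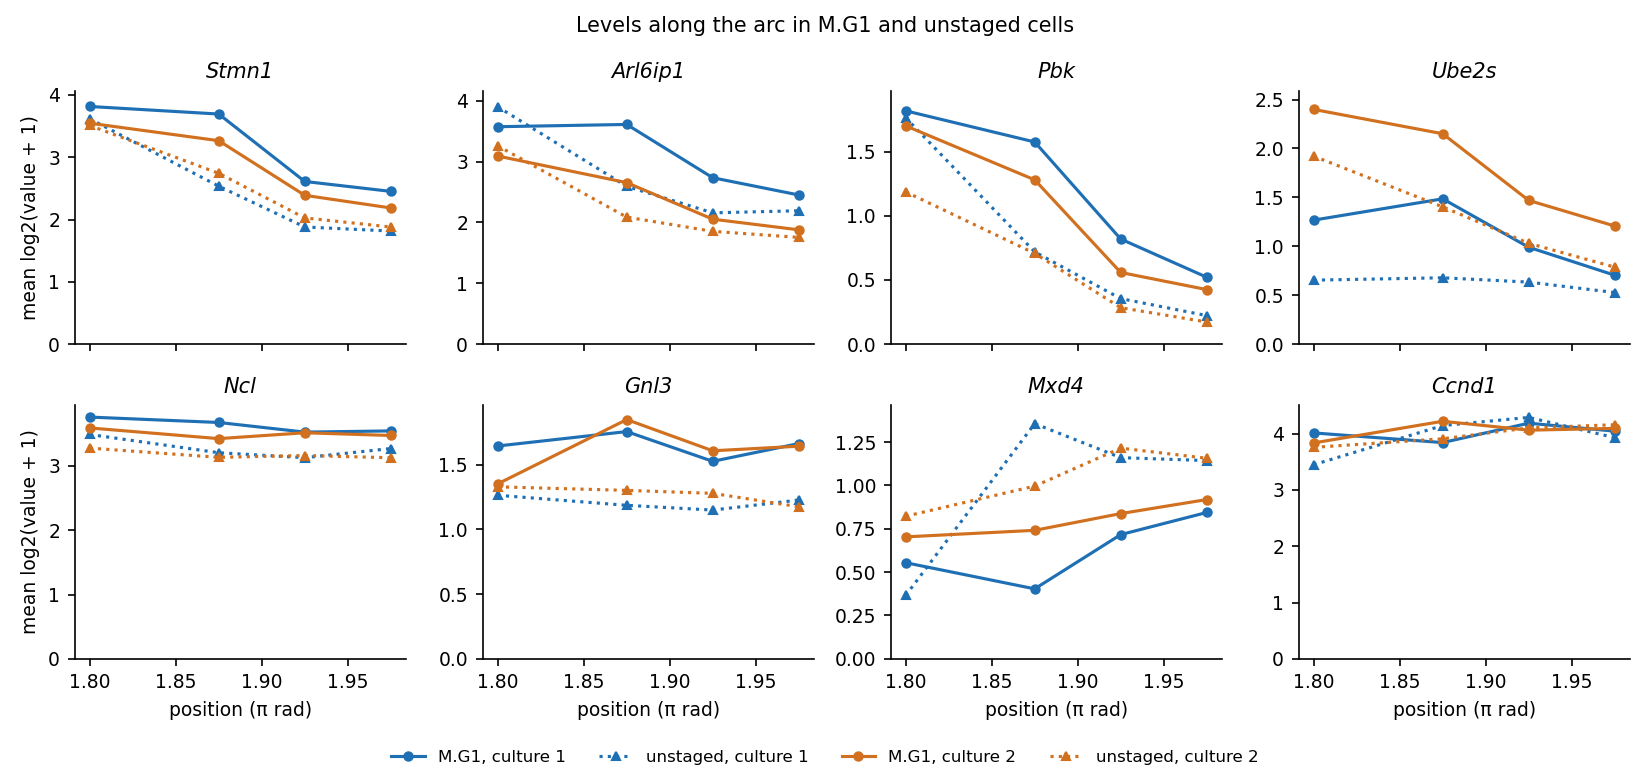
Mean log2(value + 1) (y axes) of 8 genes in 4 bins of the arc (x axes, π rad, points at bin centres) in M.G1 cells (circles, solid lines) and unstaged cells (triangles, dotted lines) of culture 1 (blue) and culture 2 (orange). *Stmn1*, *Arl6ip1*, *Pbk* and *Ube2s* are higher before 1.9π than after it in members, while *Ncl* and *Gnl3* lie above the unstaged cells in all 4 bins (*Gnl3* only narrowly in the first bin of culture 2, 1.35 against 1.33) and *Ccnd1* overlaps.

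The largest group of higher genes makes ribosomes in the nucleolus. Of 35 such genes listed, 32 are in the table and 31 passed the filter. All 31 had positive differences in both cultures, where 65.6% of all genes had the same sign in both. Of the 31, 13 were higher by 0.2 (41.9%) and 23 by 0.1 (74.2%), beside 0.892% and 4.51% of all genes. Their median difference was 0.18 in culture 1 and 0.16 in culture 2. They are 22.4% of the 58 genes that were higher by 0.2.

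*Gnl3*, which encodes the nucleolar GTPase nucleostemin of stem and progenitor cells, averaged 1.62 in members and 1.20 in unstaged cells of culture 1, and 1.63 and 1.23 in culture 2. The mean deposited value was 1.47-fold and 1.43-fold higher. *Ncl*, the gene of nucleolin, averaged 3.57 and 3.22 in culture 1 and 3.49 and 3.15 in culture 2, a difference of 0.35 ± 0.002 (n = 2). *Dkc1*, which encodes the pseudouridine synthase of box H/ACA small nucleolar ribonucleoproteins, averaged 1.06 and 0.69 in culture 1 and 0.94 and 0.56 in culture 2, with 1.67-fold and 1.74-fold higher mean values. Members were above unstaged cells in each of these genes in both cultures, by much more than the cultures differed from each other.

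*Nop56* and *Nop58*, the core proteins of box C/D particles that direct ribosomal RNA methylation, differed by 0.32 ± 0.01 and 0.31 ± 0.01 (n = 2 each). *Lyar*, a nucleolar zinc finger gene, differed by 0.35 ± 0.04. *Gnl3* lies at chr14:31012433-31019152 on the minus strand, *Ncl* at chr1:86344719-86359400 on the minus strand and *Dkc1* at chrX:75095854-75109777 on the plus strand. *Dkc1* and *Lyar* belong to the M/G1 stage list as it was written for this work, together with 1 other nucleolar gene. Without these 3 the medians of the other 28 genes were 0.16 and 0.16, and 11 of them were higher by 0.2. The difference was present along the whole arc: in culture 1 the mean over the 31 genes was 1.29 in members and 1.17 in unstaged cells of the first bin, and 1.23 and 1.07 in the last. In culture 2 it was 1.17 and 1.05 in the first bin and 1.20 and 0.999 in the last.

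The cytosolic ribosomal proteins, which nucleoli join to ribosomal RNA, did not follow. None of the 62 that passed was higher or lower by 0.1 in both cultures, and their medians were 0.01 and -0.03. *Myc*, the transcription factor known for driving nucleolar genes, had 0.46 in members and 0.45 in unstaged cells of culture 1, and 0.40 and 0.36 in culture 2, which is a difference of 0.03 ± 0.01 (n = 2).

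Splicing and folding factors had smaller differences, and few of them reached 0.2. Of 32 hnRNP and SR protein genes, which package and splice nascent RNA, 4 were higher by 0.2 (12.5%, beside 0.892% of all genes) and 14 by 0.1 (43.8%, beside 4.51%), none was lower by 0.1, and the medians were 0.12 and 0.12. The 4 are *Srsf3* (0.37 ± 0.04, n = 2), *Syncrip* (0.36 ± 0.04), *Sfpq* (0.28 ± 0.06) and *Hnrnpf* (0.25 ± 0.01). *Srsf3* and *Syncrip* are in the M/G1 stage list, and without them the medians of the other 30 genes were 0.11 and 0.10. Of 25 heat shock and cytosolic chaperone genes, 2 were higher by 0.2 (8%) and 9 by 0.1 (36.0%), with medians of 0.10 and 0.12. *Cct6a*, a subunit of the TRiC chaperonin that folds tubulin and actin, averaged 3.07 in members and 2.76 in unstaged cells of culture 1 and 2.84 and 2.53 in culture 2. *Hspd1*, the mitochondrial chaperonin gene, differed by 0.26 ± 0.02, and *Cct7* and *Cct5* by 0.19 ± 0.02 and 0.19 ± 0.03.

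Chromatin and RNA-binding proteins complete the 15 genes with the largest positive differences. *Hmgb1*, which encodes an abundant DNA-bending protein, averaged 3.87 and 3.43 in culture 1 and 3.79 and 3.42 in culture 2. *Anp32b*, a histone chaperone gene of the same family as *Anp32e*, differed by 0.34 ± 0.02, and *G3bp1*, which encodes a stress granule protein that binds RNA, by 0.41 ± 0.02 (n = 2 each). *G3bp1* is in the M/G1 stage list too. Of 26 genes of lamins, the nuclear envelope and nuclear transport, 1 was higher by 0.2 (3.85%, beside 0.892% of all genes) and 3 by 0.1 (11.5%, beside 4.51%). The 1 is *Ranbp1*, a cofactor of the Ran cycle that drives transport and nuclear assembly. The medians of these genes were 0.03 and 0.05. Without the 2 genes of the M/G1 stage list, 1 of the other 24 was higher by 0.2 and 2 by 0.1. *Lmnb1*, the gene of lamin B1, averaged 0.67 in members and 0.40 in unstaged cells of culture 1 and 0.58 and 0.44 in culture 2. *Kpnb1*, the gene of importin beta, which is in the M/G1 stage list, differed by 0.19 ± 0.04.

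The M/G1 stage list, as it was written for this work, moved less uniformly than the nucleolar genes. Of 103 M/G1 genes listed, 93 are in the table and 83 passed. Of these 83, 10 were higher by 0.2 (12.05%, beside 0.892% of all genes) and 22 by 0.1 (26.5%, beside 4.51%). None was lower by 0.1, and the medians were 0.02 and 0.05. When the list was pruned as SchwabeCC does, to genes whose correlation with the list mean exceeds 0.2, 24 genes were kept in culture 1 and 26 in culture 2, 23 of them in both. The mean over the kept genes was 1.24 in members and 1.01 in unstaged cells of culture 1, and 1.12 and 0.89 in culture 2. Of the 58 genes that were higher by 0.2, 48 are not in this list, which was not compared with the authors' own.

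**Figure D4:**
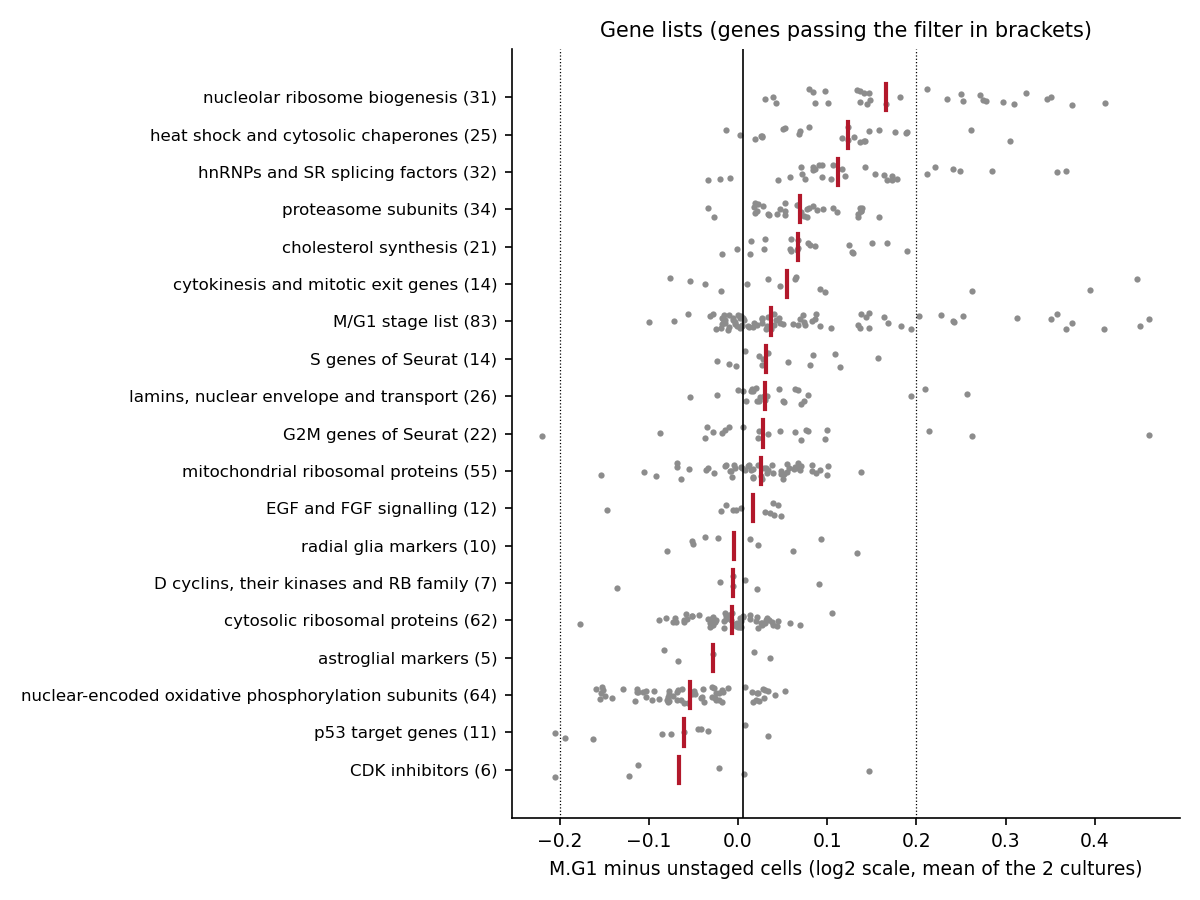
Difference between M.G1 and unstaged cells on the log2 scale (x axis, mean of the 2 cultures) of each gene (grey points) of the lists with at least 5 genes passing the filter, with the list median in red, the median over all genes as a black line and dotted lines at 0.2 and -0.2. The 31 nucleolar genes all lie to the right of 0, with a median of 0.17, and most oxidative phosphorylation and p53 target genes lie to the left of it.

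The lower genes included a MYC antagonist. *Mxd4*, which encodes a MAX dimerization protein of the MXD family that opposes MYC at shared sites and is known from differentiating cells, averaged 0.73 in members and 1.15 in unstaged cells of culture 1, and 0.85 and 1.15 in culture 2. Its mean value in members was 0.574 and 0.657 of that in unstaged cells, and it was detected in 49.6% of members and 67.3% of unstaged cells of culture 1 and in 58.8% and 70.4% in culture 2. *Mxd4* (chr5:34173883-34187720, minus strand) was the gene with the largest negative difference, at -0.36 ± 0.08 (n = 2), and the other gene past -0.2 was *Gabarap*, an autophagosome membrane protein gene, at -0.22 ± 0.02. In the first bin of the arc the order of the groups in *Mxd4* was the opposite in culture 1, with 0.55 in the 30 members and 0.37 in the 13 unstaged cells, whereas it was 0.70 and 0.82 in culture 2. Related genes that were looked up did not share the size of the *Mxd4* difference. *Mxi1* differed by -0.02 ± 0.02 and *Max* by 0.06 ± 0.01 (n = 2 each). *Mxd1* (-0.03 ± 0.01) and *Mnt* (-0.02 in culture 1 and 0.01 in culture 2) did not pass the filter.

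*Cdkn1a*, which encodes the CDK inhibitor p21 and is a target of p53, averaged 2.82 in members and 3.04 in unstaged cells of culture 1, and 2.96 and 3.15 in culture 2, which is -0.21 ± 0.02 (n = 2) and just short of 0.2 in culture 2. The *Cdkn1a* difference was uneven along the arc. In culture 1 it had the opposite sign in the first bin (2.68 against 2.46). Between 1.85π and 1.9π the values were 2.59 against 3.98 there and 3.18 against 3.60 in culture 2. In the last bin they were 2.63 against 2.67 and 2.70 against 2.89. *Ccng1*, the p53 target gene of cyclin G1, averaged 1.96 and 2.15 in culture 1 and 1.64 and 1.84 in culture 2. Of 11 p53 target genes that passed, none was past -0.2 in both cultures, 3 were lower by 0.1 (27.3%, beside 1.06% of all genes), and none was higher by 0.1. The third was *Trp53inp1*, a p53-inducible stress gene, at -0.16 ± 0.03. The medians of these genes were -0.09 and -0.06, and -0.09 over both cultures within strata of position. *Bbc3*, the gene of the apoptosis inducer PUMA, differed by -0.08 ± 0.03.

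Other CDK inhibitors were mixed. Of the 6 that passed, *Cdkn1a* and *Cdkn2c*, the gene of p18, were lower by 0.1 (33.3%, beside 1.06% of all genes). Only *Cdkn3*, a phosphatase gene with high levels in mitosis, was higher by 0.1 (16.7%, beside 4.51%), at 0.15 ± 0.05. It is in the M/G1 stage list, and in culture 1 it passed the detection filter only through the members. There it was detected in 22.0% of members and 7.99% of unstaged cells (12.8% of both together), so its count carries little weight. *Cdkn2a* differed by -0.11 ± 0.09. Of 7 genes of D cyclins, their kinases and the RB family, none differed by 0.1 in both cultures. *Ccnd2*, the other abundant D cyclin gene of these cells, averaged 4.56 and 4.62 in culture 1 and 4.48 and 4.69 in culture 2, and *Ccnd3* differed by -0.02 ± 0.00. Most targets of the growth factors in the medium were near zero as well. Of 12 EGF and FGF signalling genes 1 was lower by 0.1 (8.33%, beside 1.06% of all genes), the transcription factor gene *Etv1* at -0.15 ± 0.02. *Dusp6*, a feedback phosphatase of ERK, differed by 0.04 ± 0.01. Of 3 immediate early genes that passed, none differed by 0.1 in both cultures. *Dusp1* had 0.22 and 0.32 in culture 1 and 0.20 and 0.29 in culture 2. The other 2, *Zfp36l1* and *Myc*, had small positive differences, of 0.03 ± 0.01 each (n = 2).

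Most nuclear-encoded subunits of oxidative phosphorylation had small negative differences, and none was past -0.2 in both cultures. Of 64 genes, 45 had negative differences in both cultures and 6 positive ones, where 65.6% of all genes had the same sign in both. By 0.1, 11 (17.2%, beside 1.06% of all genes) were lower and none was higher. The medians were -0.07 and -0.05. *Uqcrh*, a subunit of complex III, had 3.996 in members and 4.18 in unstaged cells of culture 1 and 3.95 and 4.08 in culture 2. *Ndufb2* and *Ndufv3*, subunits of complex I, differed by -0.15 ± 0.01 each (n = 2). The other genes among the 15 with the largest negative differences, *Serpine2*, *BC031181*, *Npdc1*, *H2afj*, *Pcsk1n*, *Dynlt1b*, *Gm1673*, *Cald1* and *Tmem176b*, had differences between -0.21 and -0.16.

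Markers of cell type moved little with the stage. *Fabp7*, the fatty acid binding protein of radial glia, averaged 6.44 and 6.36 in culture 1 and 6.32 and 6.27 in culture 2. Of 10 radial glia markers that passed, 1 was higher by 0.1 (10%, beside 4.51% of all genes), the glutamate transporter gene *Slc1a3* at 0.13 ± 0.05. Of the 10, 4 had positive differences in both cultures and 5 negative ones, among them *Ptprz1* at -0.08 ± 0.05. The medians were -0.005 and -0.02. The summed values of these 10 markers had a mean of 154 in members and 152 in unstaged cells of culture 1 and of 147 and 149 in culture 2. *Fabp7* alone averaged 96.4 and 95.1 in culture 1 and 90.9 and 90.3 in culture 2, so these sums describe the other markers poorly. The 6 oligodendrocyte progenitor markers of the table summed to 9.19 and 9.67 in culture 1 and to 8.27 and 8.83 in culture 2, and the 6 astroglial markers to 5.73 and 6.11 and to 8.14 and 8.54. The 5 neuronal markers summed to 2.21 and 2.57 in culture 1 and to 2.16 and 2.40 in culture 2, with a 10th percentile of 0 in all 4 groups. Of the microglia, endothelial and mural markers, only *Acta2*, smooth muscle actin, was analysed here, and it was higher by 0.16 ± 0.05, with a median of 0 in all 4 groups. The part of these markers in the differences was not tested.

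Cells overlapped widely in all of these groups. The mean over the 31 nucleolar genes, taken per cell, had a median of 1.24 in members (quartiles 1.10 and 1.40) and of 1.05 in unstaged cells (0.88 and 1.22) of culture 1. In culture 2 the medians were 1.20 (1.02 and 1.36) and 1.001 (0.80 and 1.18). Of the members, 54.7% in culture 1 and 53.3% in culture 2 lay above the upper quartile of the unstaged cells. For the 11 p53 target genes this was 15.2% and 20.1%. Within members, the nucleolar mean had a Spearman's rho of 0.38 and 0.40 with the mean of the hnRNP and SR genes, of -0.02 and -0.02 with that of the p53 targets, and of 0.05 and 0.01 with that of the cytokinesis genes (446 and 741 cells, which share library and normalization). With the mean of the kept M/G1 stage genes, on which the stage rests, its rho was 0.37 and 0.32 in members and 0.45 and 0.50 in unstaged cells (839 and 1647 cells). Its rho with log2 total UMIs was -0.03 and 0.08.

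**Figure D5:**
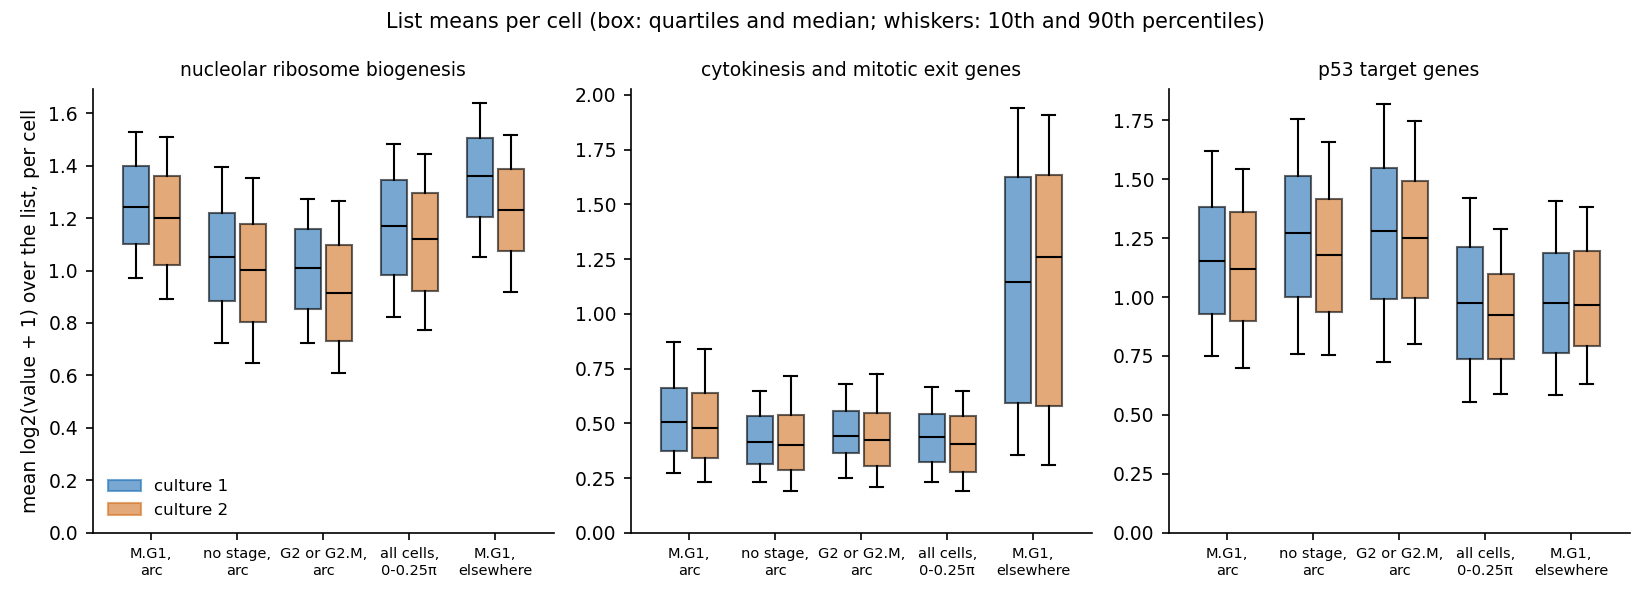
Mean log2(value + 1) per cell (y axes) over the nucleolar (31), cytokinesis (14) and p53 target (11) genes that passed the filter, in 5 groups of cells (x axes) of culture 1 (blue) and culture 2 (orange); boxes give quartiles and median, whiskers the 10th and 90th percentiles. Members have nucleolar medians of 1.24 and 1.20 beside 1.05 and 1.001 in unstaged cells, and their cytokinesis medians of 0.50 and 0.48 lie far below those of M.G1 cells elsewhere.

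Set against other cells, the members had more nucleolar transcripts than the rest of the arc. Their mean over these genes was 1.25 in culture 1 and 1.20 in culture 2, above the cells staged G2 or G2.M in the same arc (1.01 and 0.93) and above all cells between 0 and 0.25π (1.16 and 1.11). The latter were of any stage. M.G1 cells between 0 and 0.05π were not below the members of the last bin in *Ncl* (3.71 and 3.52 beside 3.54 and 3.47), and in *Gnl3* they were close (1.60 and 1.65 beside 1.66 and 1.64). Among 8 equal arcs of the cycle the nucleolar mean was lowest in the arc of the members (1.09 and 1.03 over all its cells) and highest between 0.5π and 0.75π (1.34 and 1.25). M.G1 cells elsewhere on the cycle had 1.35 and 1.23. For the cytokinesis genes, members had 0.54 and 0.51 and M.G1 cells elsewhere 1.15 and 1.16. The p53 target mean was 1.17 and 1.13 in members, 1.26 and 1.19 in unstaged cells and 1.28 and 1.26 in the G2 or G2.M cells of the arc, and it was 0.98 and 0.93 between 0 and 0.25π. *Mxd4* had the reverse order of the nucleolar genes across 3 of these groups. It averaged 0.73 and 0.85 in members, 1.13 and 1.27 in the G2 or G2.M cells of the arc and 0.48 and 0.65 in M.G1 cells elsewhere. With the unstaged cells added, the reverse order held in culture 2 only. In culture 1 unstaged cells lay above the G2 or G2.M cells in both *Mxd4* (1.15 against 1.13) and the nucleolar mean (1.06 against 1.01). In culture 2 the values were 1.15 against 1.27 and 0.999 against 0.93.

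Because many of the higher genes share a function, their promoters were searched for the E-box CACGTG, the site that MYC and MXD proteins share, which reads the same on both strands. The 250 bases before each RefSeq start of a gene (GRCm38.p6) were searched, and a match at any start was counted, so genes with several starts had more windows. It was found in 5 of the 48 higher genes with a promoter in the table (10.4%), in 1 of 27 nucleolar genes (3.70%) and in 547 of 5203 genes that passed the filter (10.5%). It was in 33 of 241 genes higher by 0.1 (13.7%) and in 4 of 55 genes lower by 0.1 (7.27%). The other motif searched, TTTGAA on both strands, which lies within the CHR element of many cell-cycle promoters, was in 7 of the 48 higher genes (14.6%), in 4 of 14 cytokinesis genes (28.6%), in 2 of 27 nucleolar genes (7.41%) and in 636 of the 5203 genes (12.2%). Over all 27025 genes with a promoter in the table the shares were 6.86% for CACGTG and 18.3% for TTTGAA. These shares are descriptions, and the differences between them were not tested. The sequences below show the CACGTG match in capitals with up to 20 bases on either side, 5′ to 3′ on the strand of the gene, for the 5 higher genes and for *Nop2*, the nucleolar gene with a CACGTG match.
Hspd1: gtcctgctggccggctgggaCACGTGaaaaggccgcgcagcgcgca
Set: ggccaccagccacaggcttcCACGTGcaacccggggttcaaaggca
Anp32b: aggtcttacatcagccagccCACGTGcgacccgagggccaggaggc
Hmgb1: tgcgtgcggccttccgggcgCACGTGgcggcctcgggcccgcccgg
Hnrnpf: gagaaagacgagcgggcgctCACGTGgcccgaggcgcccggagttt
Nop2: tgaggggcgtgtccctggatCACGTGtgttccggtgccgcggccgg
They lie at chr1:55088298-55088343 (minus strand), chr2:30061842-30061887 (plus), chr4:46450810-46450855 (plus), chr5:149051660-149051705 (minus), chr6:117907705-117907750 (plus) and chr6:125131803-125131848 (plus), in the same order. The windows of *Set*, *Hmgb1* and *Hnrnpf* lie inside the annotated span of the gene, before another of its starts. A match is a description of these letters and not a bound site, and genes without one in the searched windows may hold it elsewhere.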

How the data were processed

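Single-cell RNA-seq libraries of 2 replicate neurosphere cultures were analysed. Per the labels, a Chromium kit of version 2 was used, where the paper's methods name a later version. The authors quantified spliced counts with Alevin (Salmon 1.3.0) against GRCm38 with GENCODE annotation, removed outlying cells and likely doublets, mitochondrial genes and rarely detected genes, and deposited normalized expression as a linear signal, already scaled for depth. No whole counts were recovered from it, so no count model was used. Total UMIs are sums of estimated counts deposited by the authors. The other values of the authors' deposited cell table are the position and the stages. The authors integrated the cultures with Seurat 3.2.2 before the position was computed, so positions of the 2 cultures are not independent. How the deposited values relate to that integration is not given in the sources used here.

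Values were transformed as log2(value + 1) and averaged over cells within each culture. Since 1 transcript is worth a different value in each culture, levels were compared within cultures only. Genes needed detection in at least 10% of the compared cells of each culture (6502 of 10666 genes, 10662 with a symbol). The spread is the SD over 2 cultures. Cells are not replicates, and no test was run. Depth was a median of 19477 UMIs per cell in culture 1 and 14637 in culture 2, so low values are less precise in culture 2.

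The genes named are *Ccnd1*, *Arl6ip1*, the 15 genes at either end ranked by the smaller difference of the cultures, and up to 4 per list. *Set*, *Nop2*, *Mxi1*, *Max*, *Mxd1* and *Mnt* were chosen after their values were seen. Members and lists were chosen with earlier results of these data known. The M/G1 stage list was written for this work and not compared with the authors' own. Positions of genes are from GENCODE vM21 (GRCm38). Alternatives were all other arc cells, strata of depth and position, other bounds, thresholds, pseudocount and scaling, no filter, and each culture left out. Python 3.11.15, numpy 2.4.6, pandas 2.3.3, scipy 1.17.1 and matplotlib 3.10.9 were used.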

Additional observations from a re-analysis of the deposited data

How the results depend on the processing

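The count of 58 higher genes was 293 at a threshold of 0.1, 2 at 0.4 and 417 with a pseudocount of 0.1, and 95 to 113 with either culture left out. It stayed between 52 and 81 with all other cells of the arc as comparison, within strata of depth or of position, with the arc from 1.8π or 1.7π, after rescaling to a sum of 10000 and without a filter. The count of 2 lower genes was 69 at 0.1, 0 at 0.4, 64 with a pseudocount of 0.1, 4 against all other cells, 4 within strata of depth, 1 after rescaling and 6 to 17 with either culture left out. With a pseudocount of 0.1 the *Ccnd1* difference was 0.035 (-0.006 with a pseudocount of 1), and its sign also turned within strata of position (0.01) and without culture 2 (0.01). With that pseudocount the median of the M/G1 stage list was 0.0794 and that of the G2M genes 0.0853. A lower pseudocount widens differences of low values and moved the median of all genes from 0.01 to 0.03. The M.G1 share, the depth difference and the *Arl6ip1* difference moved by less than the SD of the cultures. For the 30 genes with the largest differences, 300 of 300 alternative values kept their sign, but 21 moved by over 1.5 times. With a pseudocount of 0.1, for example, *Dkc1* was 0.96, *Pbk* 1.19 and *Mxd4* -0.81. In alternatives chosen after seeing the data, the nucleolar median was between 0.16 and 0.39 and that of the p53 targets between -0.15 and -0.06. Members and unstaged cells were always subtracted within the same culture. With 2 cultures an SD is itself uncertain, and genes detected in few cells could not be compared at this depth.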

Other observations

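Of 21 cholesterol synthesis genes, 4 were higher in members by 0.1 (19.0%, beside 4.51% of all genes) and none was lower by 0.1, with medians of 0.13 in culture 1 and 0.04 in culture 2. *Msmo1*, a sterol demethylation enzyme gene, averaged 2.83 in members and 2.61 in unstaged cells of culture 1 and 2.43 and 2.27 in culture 2. *Idi1* and *Sqle*, enzymes earlier in the pathway, differed by 0.17 ± 0.04 and 0.15 ± 0.05 (n = 2 each). Of 34 proteasome subunit genes, 27 had positive differences in both cultures and 2 negative ones, where 65.6% of all genes had the same sign in both. By 0.1, 6 were higher (17.6%, beside 4.51% of all genes), and the medians were 0.04 and 0.09. *Psmc6*, an ATPase of the regulatory particle, differed by 0.16 ± 0.03. Of 55 mitochondrial ribosomal proteins, 29 had positive differences in both cultures and 12 negative ones, again beside 65.6% of all genes with the same sign in both. By 0.1, 1 was higher (1.82%, beside 4.51% of all genes), *Mrps5* at 0.14 ± 0.03. As many were lower (1.82%, beside 1.06%), namely *Mrps21* at -0.15 ± 0.002.

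Of 14 S genes of Seurat that passed, 8 had positive differences in both cultures and none was negative in both. Among all genes, 65.6% had the same sign in both cultures, so this count does not set the list apart. Of the 14, 1 was higher by 0.1 (7.14%, near the 4.51% of all genes). This was *Nasp*, a histone chaperone gene of S phase, with 0.83 in members and 0.72 in unstaged cells of culture 1 and 0.76 and 0.56 in culture 2. *Cdca7* differed by 0.11 ± 0.02 and *Tipin*, a replication fork gene, by 0.08 ± 0.01.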
